A study of Mus musculus with 8 samples.

Results

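Guanylate-binding proteins (GBPs) and immunity-related GTPases (IRGs) are 2 families of interferon-inducible GTPases, described here by 10 genes, the GBP genes Gbp2, Gbp3, Gbp5, Gbp7 and Gbp9 and the IRG genes Irgm1, Irgm2, Igtp, Ifi47 and Iigp1. They were taken by symbol from an expression table of 24421 genes, and all 10 were found. Their levels were followed in bone marrow-derived macrophages (BMMs), which are macrophages grown from mouse marrow, with and without Rbpj, before and after 2 days with tumor necrosis factor (TNF). All 10 were higher in the second replicate than in the first in every group. Set within a replicate, all 10 were higher in knockout than in wild-type cells at day 0, where 31.8% of all genes were higher in both replicates. No member was called in that comparison, with or without the replicate number in the model. In those fits 0% of all genes were called higher and at most 0.0082% lower. The groups overlapped for every member, while 9.86% of all genes were higher and 8.66% lower without overlap. With the replicate number in the model, Gbp9, Irgm2, Igtp and Ifi47 were called lower after TNF than at day 0 in knockout cells, and Gbp2 and Gbp5 were called higher after TNF than at day 0 in wild-type cells. None of these 6 calls was made without the replicate number. With it, 13.7% of all genes were called lower in the knockout comparison and 5.54% higher in the wild-type one. In fits with the replicate number, the call of Gbp9 alone was kept whichever library was left out.

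GBPs and IRGs act in cell-autonomous immunity: they assemble on the vacuoles or surfaces of intracellular bacteria and parasites and help to break them open. In macrophages their transcription is driven mainly by interferon-gamma through the kinases JAK1 and JAK2, by way of gamma-activated sequences (GAS) in DNA, and by IRF1 and complexes that hold IRF9, which bind interferon-stimulated response elements (ISRE). The IRG family holds regulators that sit on the cell's own membranes, such as the products of Irgm1, Irgm2 and Igtp (Irgm3), and effectors that load onto vacuoles, such as those of Iigp1 (Irga6) and Ifi47 (Irgd). RBP-J, encoded by Rbpj, binds DNA on behalf of Notch signalling and is known to shape macrophage responses to TNF.

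The 4 groups were knockout cells after 2 days with TNF at 40 ng/ml (KO TNF), wild-type cells after the same treatment (WT TNF), untreated knockout cells at day 0 (KO day 0) and untreated wild-type cells at day 0 (WT day 0), with 2 libraries each. The knockout carried floxed Rbpj alleles and Cre expressed from the LysM (Lyz2) locus of myeloid cells (Rbpj f/f;LysMCre), so cells that do not express Cre keep the gene, and the labels do not say whether the wild-type cells carried Cre or floxed alleles. Untreated cells were sampled at day 0 alone, so the effects of TNF and of time in culture cannot be told apart. Whether the 2 libraries of a group stem from different mice is not stated in the labels, and the p-values reflect the spread between libraries, which may be technical. Values are CPM, the reads of a gene scaled by the total reads counted in genes of that library, and the libraries held 9855859 to 35653203 such reads, with KO TNF replicate 1 the smallest. Rbpj stood at 30.03 and 21.4 CPM in KO TNF, 226 and 178 CPM in WT TNF, 38.9 and 31.8 CPM in KO day 0 and 215 and 216 CPM in WT day 0 libraries. All 7 macrophage markers were detected in every group, with summed levels of 4859 to 8941 CPM over the 8 libraries. Replicate 1 and replicate 2 stood apart in every group, so each pair of values below is given as replicate 1 and then replicate 2, and differences are given within each replicate.

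The genes lie in clusters. In the GRCm38 build with GENCODE M21 annotation, Gbp5 (ENSMUSG00000105504.4, chr3:142493978-142522344), Gbp7 (ENSMUSG00000040253.15, chr3:142530342-142550149), Gbp3 (ENSMUSG00000028268.14, chr3:142560026-142573209) and Gbp2 (ENSMUSG00000028270.12, chr3:142620602-142638008) follow each other on the plus strand of chromosome 3. Gbp9 (ENSMUSG00000029298.15, chr5:105077630-105139539, minus strand) lies on chromosome 5. Irgm1 (ENSMUSG00000046879.7, chr11:48861968-48871683, minus strand), Ifi47 (ENSMUSG00000078920.3, chr11:49076587-49096974, plus strand), Igtp (ENSMUSG00000078853.8, chr11:58199556-58207591, plus strand) and Irgm2 (ENSMUSG00000069874.7, chr11:58199618-58222782, plus strand) lie on chromosome 11. All 10 are annotated as protein coding. In this annotation Igtp and Irgm2 start at almost the same place and share 162 exon bases on one strand, 8.01% of the exon bases of Igtp and 4.39% of those of Irgm2. Gbp9 shares 60 exon bases with each of Gbp4 and Gbp8, Gbp7 shares 637 with the pseudogene Gm43802, and Ifi47 shares 111 with Olfr56. How the authors counted reads that fit several genes, and whether strand was used, was not given in the sources used here, so the levels of these members are uncertain to that extent.

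The stretches below are the parts of the RefSeq promoters (GRCm38.p6) that hold the ISRE letters, written as GAAA, any 2 bases and GAAA, or as the reverse complement, TTTC, any 2 bases and TTTC, and are shown because 7 of the 8 members with an entry share these letters. Of the 10 genes, 8 had a RefSeq promoter entry (not Gbp9 and Iigp1), with 9 windows of 250 bases before a start, and 7 of these 8 genes held the letters (not Ifi47). Each sequence is written 5′ to 3′ on the gene's own strand, with the matching letters in capitals. RefSeq and GENCODE differ in some starts. The RefSeq start used here for Irgm2 lies 15359 bases downstream of its GENCODE gene start and that of Gbp5 2956 bases downstream, while for the other 6 genes a RefSeq start lies within 263 bases of the GENCODE one.
Gbp2 (chr3:142620582-142620635, plus strand): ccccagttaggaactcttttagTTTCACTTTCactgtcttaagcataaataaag
Gbp3 (chr3:142559977-142560036, plus strand): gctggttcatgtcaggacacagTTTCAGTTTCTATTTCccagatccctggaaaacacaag
Gbp5 (chr3:142496747-142496800, plus strand): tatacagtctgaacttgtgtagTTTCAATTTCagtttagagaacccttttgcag
Gbp7 (chr3:142530261-142530314, plus strand): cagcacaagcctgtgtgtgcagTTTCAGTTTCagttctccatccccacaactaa
Irgm1 (chr11:48871421-48871472, minus strand): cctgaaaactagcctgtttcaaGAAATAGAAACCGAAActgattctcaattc
Irgm2 (chr11:58214891-58214944, plus strand): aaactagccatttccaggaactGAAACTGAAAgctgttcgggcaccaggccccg
Igtp (chr11:58199500-58199553, plus strand): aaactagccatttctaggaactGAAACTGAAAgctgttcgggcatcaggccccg

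Gbp3 and Irgm1 each hold 2 overlapping matches, drawn as 1 run of capitals. The 4 GBP stretches hold the TTTC form and the 3 IRG stretches the GAAA form. The Igtp and Irgm2 stretches are identical at 52 of 54 bases. In distance from the RefSeq start, the ISRE letters ended 15 bases before the start in Irgm1, 25 in Igtp, 30 in Gbp3, 44 in Gbp7, 50 in Gbp2, 55 in Irgm2 and 156 in Gbp5. Over all 32851 RefSeq promoter windows of the same length, 2.98% held these letters on either strand. The GAS letters TTCNNNGAA were in 4 of the 8 genes (Gbp5, Gbp7, Igtp and Irgm2) and in 7.02% of all windows. An NF-kB motif, written as GGGA, any base and TTTCC, or as its reverse complement, was in 1 of the 8 (Gbp5) and in 0.356% of all windows. The RBP-J core TGGGAA, or its reverse complement TTCCCA, was in 3 of the 8 (Gbp3, Gbp5 and Gbp7) and in 21.6% of all windows. In Gbp5 an RBP-J match overlapped the NF-kB match and another overlapped a GAS match, and in Gbp3 an RBP-J match overlapped an ISRE match. The members are counted here by gene and the background by window. Of the 9 member windows, 7 held the ISRE letters, 4 the GAS letters, 1 the NF-kB letters and 3 the RBP-J letters. A match is a match of letters and not a measured binding site.

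**Figure D1:**
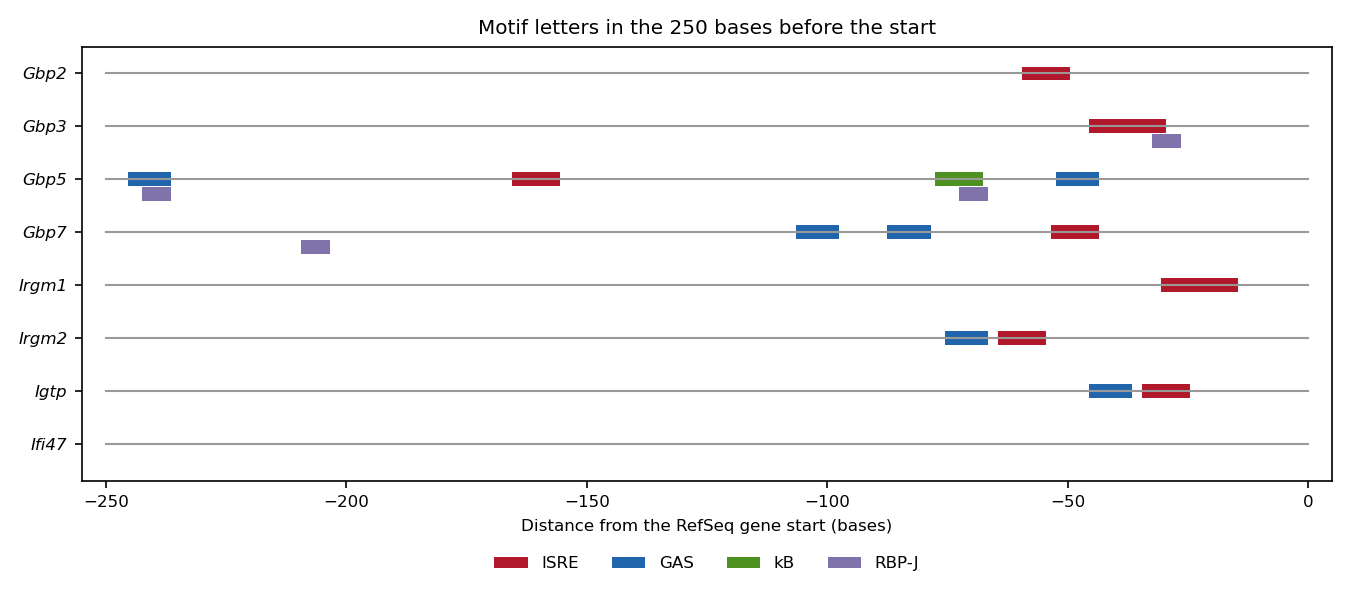
Matches of the ISRE, GAS, NF-kB and RBP-J letters in the 250 bases before the RefSeq start of each member with a promoter entry, with distance from the start in bases on the horizontal axis and 1 row per gene. Only the first window of Gbp3 is drawn. The ISRE letters are in 7 of 8 genes, within the last 64 bases in 6 of them, and in Gbp5 they lie farther out, from 165 to 156 bases before the start.

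Per kilobase of merged exons, the order of the mean levels over the 8 libraries was Ifi47 (28.8 CPM per kb), Gbp2 (26.9), Irgm1 (24.2), Irgm2 (22.5), Igtp (18.4), Gbp3 (11.9), Gbp7 (10.2), Gbp9 (4.02), Iigp1 (3.27) and Gbp5 (2.67 CPM per kb). The order was not fixed within these libraries. Gbp2 ranked from 1 to 6 of the 10 and Ifi47 from 1 to 7, so the ranks of the first 7 genes overlapped between libraries. Gbp9, Iigp1 and Gbp5 held ranks 7 to 10 in all 8 libraries. The lowest read number of any member was 7, for Iigp1 in WT day 0 replicate 1.

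Summed over the 10 genes, the level was 151 and 675 CPM in KO TNF libraries, 112 and 1189 CPM in WT TNF, 160.4 and 1465 CPM in KO day 0 and 116 and 563 CPM in WT day 0 libraries. The 4 replicate 2 libraries therefore lay between 563 and 1465 CPM, and the 4 replicate 1 libraries between 112 and 160.4 CPM, with no overlap. The 5 GBP genes made up 77.01 and 397 CPM of this in KO TNF, 38.4 and 496 in WT TNF, 40.8 and 435 in KO day 0 and 22.01 and 114 CPM in WT day 0 libraries. The 5 IRG genes made up 74.4 and 278 CPM in KO TNF, 73.3 and 693 in WT TNF, 119.6 and 1029.5 in KO day 0 and 93.5 and 449 CPM in WT day 0 libraries. Among the replicate 2 libraries the GBP sum was highest in WT TNF, and the IRG sum was highest in KO day 0 and lowest in KO TNF.

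Gbp2, a GBP that acts on Toxoplasma and Salmonella vacuoles, had 17.1 and 127 CPM in KO TNF libraries, 13.4 and 274 CPM in WT TNF, 6.61 and 79.96 CPM in KO day 0 and 4.08 and 20.2 CPM in WT day 0 libraries. Within each replicate its lowest level was that of WT day 0, and its highest was KO TNF in replicate 1 and WT TNF in replicate 2. Gbp5, which promotes assembly of the NLRP3 inflammasome in macrophages, had 7.10 and 55.2 CPM in KO TNF libraries, 2.22 and 34.8 CPM in WT TNF, 3.72 and 31.9 CPM in KO day 0 and 0.875 and 6.01 CPM in WT day 0 libraries. Gbp7, which has been tied to NADPH oxidase assembly on phagosomes, had 35.8 and 139.7 CPM in KO TNF libraries, 13.8 and 90.1 CPM in WT TNF, 10.4 and 125 CPM in KO day 0 and 5.39 and 40.1 CPM in WT day 0 libraries. For Gbp5 and Gbp7 the KO TNF library was the highest and the WT day 0 library the lowest of its replicate, in both replicates. Gbp3, recruited to Toxoplasma vacuoles, had 14.8 and 66.9 CPM in KO TNF libraries, 6.42 and 81.1 CPM in WT TNF, 11.04 and 104 CPM in KO day 0 and 5.94 and 21.03 CPM in WT day 0 libraries. Gbp9, another GBP of the Toxoplasma vacuole, had 2.13 and 8.97 CPM in KO TNF libraries, 2.61 and 16.03 CPM in WT TNF, 9.01 and 94.7 CPM in KO day 0 and 5.72 and 27.1 CPM in WT day 0 libraries. Gbp9 had the other pattern, with both TNF libraries of a replicate below both day 0 libraries of that replicate.

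Irgm1, a regulatory IRG needed for resistance to mycobacteria in mice, had 33.2 and 107 CPM in KO TNF libraries, 30.2 and 302 CPM in WT TNF, 47.5 and 355 CPM in KO day 0 and 42.3 and 206 CPM in WT day 0 libraries. Irgm2, also regulatory, had 18.6 and 63.2 CPM in KO TNF libraries, 17.00 and 128 CPM in WT TNF, 33.9 and 276 CPM in KO day 0 and 23.03 and 105 CPM in WT day 0 libraries. Igtp, the third regulatory IRG, had 10.1 and 27.9 CPM in KO TNF libraries, 10.3 and 62.5 CPM in WT TNF, 16.5 and 113 CPM in KO day 0 and 12.8 and 45.5 CPM in WT day 0 libraries. These 3 genes had their highest level of each replicate in KO day 0 cells. Ifi47, an IRG of the effector class, had 11.2 and 70.5 CPM in KO TNF libraries, 14.9 and 178 CPM in WT TNF, 20.01 and 184 CPM in KO day 0 and 15.2 and 76.5 CPM in WT day 0 libraries. Iigp1, the best-studied effector IRG, which coats Toxoplasma vacuoles, had 1.32 and 8.97 CPM in KO TNF libraries, 0.869 and 21.8 CPM in WT TNF, 1.72 and 102 CPM in KO day 0 and 0.255 and 15.5 CPM in WT day 0 libraries. Iigp1 (ENSMUSG00000054072.12) lies apart from the other IRG genes, on chromosome 18. Both effectors were also highest in KO day 0 cells in each replicate. With the 2 libraries of a group this far apart, the groups overlapped for every member in the comparisons below, apart from Gbp9 in KO TNF against KO day 0 cells.

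**Figure D2:**
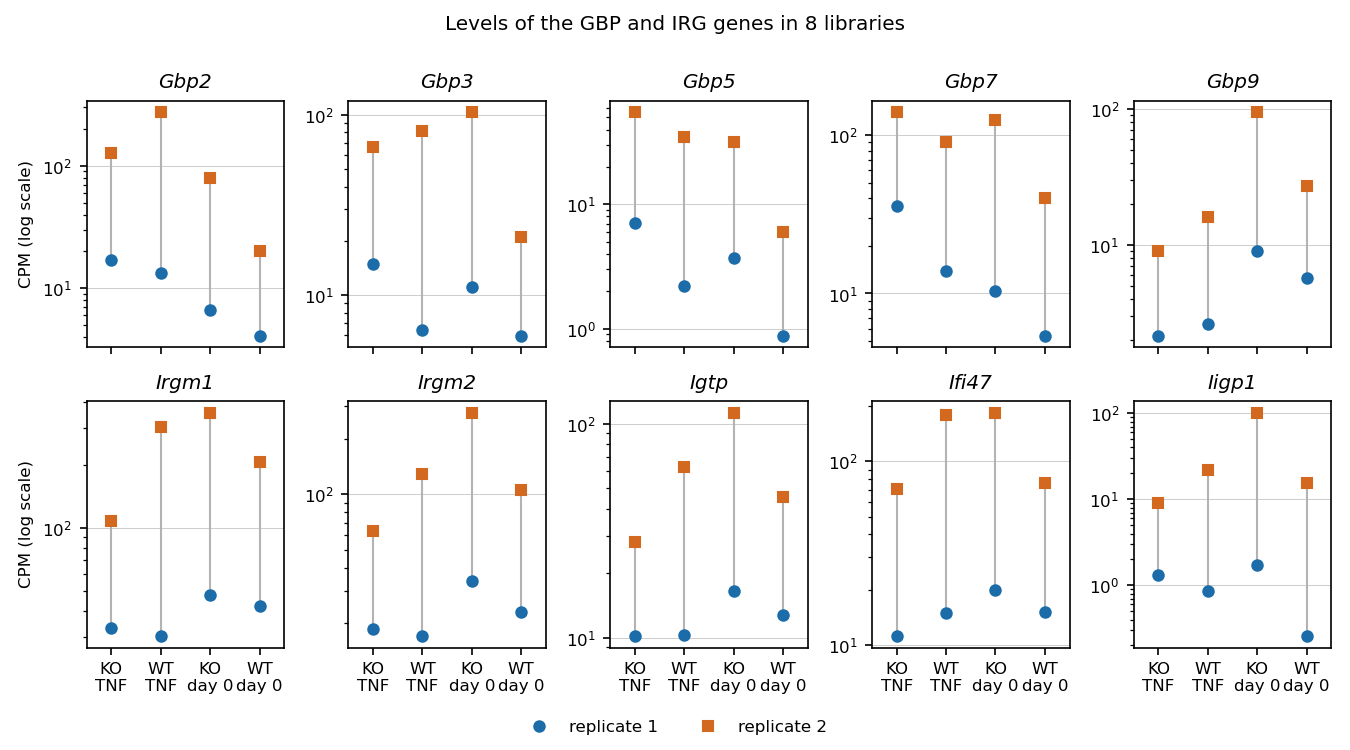
Level of each of the 10 GTPase genes in CPM on a log axis, by group (KO TNF, WT TNF, KO day 0, WT day 0) and by replicate, with 1 point per library. The replicate 2 point lies above the replicate 1 point in every group and every gene. Within each replicate, Gbp9 and the IRG genes stand higher at day 0 than after TNF in knockout cells.

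The comparison of replicate 2 with replicate 1 asked how far the replicate number moved these genes. All 10 were higher in replicate 2 in all 4 groups, where 22.7% of the 12194 genes tested were higher and 36.4% lower in all 4. In the fit with group and replicate number, all 10 rose past the threshold (limma, Benjamini-Hochberg over all genes). Their limma adjusted p ran from 0.000613 for Ifi47 to 0.00165 for Gbp3. Over all genes, 15.8% were called higher and 30.4% lower. If each number marks 1 experiment, these p-values reflect the spread over the 4 groups and not the spread between experiments. The log2 differences ran from 2.12 ± 0.24 for Igtp to 4.09 ± 0.47 for Iigp1 (± moderated standard error), with a median of 2.69, while the median of all genes was -0.15. By CPM, the smallest ratio of replicate 2 to replicate 1 was 2.75 (Igtp in KO TNF cells) and the largest 60.9 (Iigp1 in WT day 0 cells, on 419 against 7 reads). Gbp2, Gbp3, Gbp5, Irgm1 and Ifi47 had their largest ratio in WT TNF cells, and Gbp7, Gbp9, Irgm2 and Igtp in KO day 0 cells. Markers of other cells moved with the replicate number. The summed level of 7 neutrophil markers was 32.7 and 49.99 CPM in KO TNF, 60.3 and 139 in WT TNF, 179 and 994 in KO day 0 and 140.0 and 832 CPM in WT day 0 libraries, higher in replicate 2 in all 4 groups. The 4 stromal markers summed to 167 and 6.80 CPM in KO TNF, 132 and 29.5 in WT TNF, 142 and 3.47 in KO day 0 and 105 and 4.64 CPM in WT day 0 libraries, lower in replicate 2 in all 4. The 5 dendritic markers summed to 5.07 and 28.6 CPM in KO TNF, 2.52 and 9.54 in WT TNF, 6.75 and 31.9 in KO day 0 and 3.57 and 3.60 CPM in WT day 0 libraries. The 7 T and NK markers, of which Klrb1c alone passed the filter, summed to at most 8.40 CPM in any library (WT TNF replicate 2), and the 4 B cell markers to at most 9.91 CPM (KO day 0 replicate 2). Cd3d had no reads in KO TNF and WT TNF, Ncr1 none in KO day 0, and Cd3g and Gzmb none in WT day 0 libraries. The part of these cells in the replicate difference was not tested, and in bulk samples fewer cells of a type and less RNA per cell cannot be told apart.

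In knockout cells, the comparison of TNF with day 0 asked what 2 days with TNF changed without Rbpj. The IRG genes and Gbp9 were lower after TNF in both replicates, while Gbp2, Gbp5 and Gbp7 were higher in both. Within the replicates the log2 difference was -1.85 and -3.33 for Gbp9, -0.51 and -1.72 for Irgm1, -0.85 and -2.12 for Irgm2, -0.68 and -1.99 for Igtp, -0.81 and -1.38 for Ifi47 and -0.28 and -3.43 for Iigp1, each time larger in replicate 2. It was 1.31 and 0.66 for Gbp2, 0.85 and 0.78 for Gbp5 and 1.74 and 0.16 for Gbp7, and 0.41 and -0.63 for Gbp3, whose replicates went opposite ways. So 6 of 10 were lower and 3 of 10 higher in both replicates, where 45.4% and 33.3% of all genes were, and the group as a whole was not one-sided.

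Without the replicate number in the fit, limma called 0 of the 10 in knockout cells, where 3.09% of all genes were called higher and 2.01% lower, and 0 had an unadjusted p under 0.05 (edgeR also called 0 at either level, and DESeq2 called 0 adjusted and 1 unadjusted, Gbp9). With the replicate number as a block, 4 of the 10 fell and 0 rose, where 13.7% and 12.2% of all genes did. Gbp9 fell by 2.59 ± 0.36 on the log2 scale (limma adjusted p = 0.00468 with the block and 0.393 without it). Irgm2 differed by -1.48 ± 0.32 (adjusted p = 0.0190 with the block and 0.665 without it). Igtp differed by -1.33 ± 0.34 (adjusted p = 0.0315 with the block and 0.656 without it), and Ifi47 by -1.10 ± 0.30 (adjusted p = 0.0416 with the block and 0.819 without it). Irgm1 (-1.12 ± 0.37, adjusted p = 0.0677) and Iigp1 (-1.86 ± 0.66, adjusted p = 0.0853) did not pass with the block, nor did Gbp7 (0.95 ± 0.34, adjusted p = 0.0881), Gbp2 (0.98 ± 0.46) or Gbp5 (0.81 ± 0.35). Gbp9 was the 1 member whose KO TNF and KO day 0 libraries did not overlap, where 25.2% of all genes were lower and 20.4% higher in that way. Its margin was thin, since its higher KO TNF library had 8.97 CPM and its lower KO day 0 library 9.01 CPM.

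The call for Gbp9 was kept in each of the 8 blocked fits that leave out 1 library (adjusted p 0.0082 to 0.0323). Irgm2 was no longer called without KO TNF replicate 2 (adjusted p = 0.0996) or KO day 0 replicate 2 (0.147), and Igtp without the same libraries (0.178 and 0.224). Ifi47 was lost without KO TNF replicate 1 or 2 (0.0692 and 0.215) or KO day 0 replicate 1 or 2 (0.104 and 0.245), and also in edgeR with the block (0.0789). The median log2 difference of the 10 was -1.11, with 0.81 for the 5 GBP genes and -1.33 for the 5 IRG genes, against -0.10 for all genes. Summed osteoclast markers, 7 genes, were 17240.3 and 40561 CPM in KO TNF and 119 and 178 CPM in KO day 0 libraries. Markers of other cells moved as well. The 7 neutrophil markers, all lower on average after TNF (median log2 difference -4.53), summed to 32.7 and 49.99 CPM in KO TNF and 179 and 994 CPM in KO day 0 libraries, and the 4 B cell markers, also all lower (median -1.59), to 1.01 and 1.90 CPM in KO TNF and 7.75 and 9.91 CPM in KO day 0 libraries. The part of these cells in the differences was not tested.

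In wild-type cells the same comparison asked what 2 days with TNF changed when Rbpj was present. Gbp2 and Gbp5 were higher after TNF in both replicates and were called with the block, Gbp9 was lower in both, and no IRG gene was called. The within-replicate log2 difference was 1.60 and 3.73 for Gbp2, 0.98 and 2.44 for Gbp5, 1.28 and 1.16 for Gbp7, 0.10 and 1.92 for Gbp3 and -1.001 and -0.74 for Gbp9. For the IRG genes it was -0.48 and 0.55 for Irgm1, -0.43 and 0.28 for Irgm2, -0.30 and 0.46 for Igtp, -0.028 and 1.21 for Ifi47 and 0.86 and 0.47 for Iigp1. In replicate 1, 4 of these 5 were below day 0, and in replicate 2 all 5 were above it. Over the 10 genes, 5 were higher and 1 lower in both replicates (27.5% and 43.6% of all genes).

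No member was called in wild-type cells without the block, where 0.812% of all genes were called higher and 0.369% lower. None had an unadjusted p under 0.05 in limma or edgeR, and in DESeq2 1 did (Gbp2), with 0 adjusted calls. With the block, 2 of 10 rose and 0 fell, where 5.54% and 4.71% of all genes did. Gbp2 rose by 2.66 ± 0.46 on the log2 scale (limma adjusted p = 0.0197 with the block and 0.711 without it) and Gbp5 by 1.71 ± 0.35 (adjusted p = 0.0309 with the block and 0.868 without it). The Gbp2 call was lost without WT TNF replicate 2 (adjusted p = 0.114) or WT day 0 replicate 2 (0.107). The Gbp5 call was lost without either of those (0.189 and 0.188) and without KO day 0 replicate 1 or 2 (0.0578 and 0.0605). Gbp7 (1.22 ± 0.34, adjusted p = 0.0734), Gbp3 (1.01 ± 0.44, adjusted p = 0.190) and Gbp9 (-0.87 ± 0.36, adjusted p = 0.170) did not pass with the block. WT TNF and WT day 0 libraries overlapped for all 10, where 14.8% of all genes were higher and 22.6% lower without overlap. The medians were 0.63 for the 10 genes, 1.22 for the GBP genes, 0.08 for the IRG genes and -0.12 for all genes. Osteoclast markers summed to 6329.6 and 4564 CPM in WT TNF and 115 and 131 CPM in WT day 0 libraries, with Calcr at 0 in WT day 0. Of the 7 neutrophil markers 6 were lower on average after TNF (median -3.31), and they summed to 60.3 and 139 CPM in WT TNF and 140.0 and 832 CPM in WT day 0 libraries. The 4 stromal markers were all higher on average (median 1.35), at the sums given above. The part of these cells was not tested.

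After TNF, knockout and wild-type cells were compared to ask what the loss of Rbpj changed in treated cells. Gbp5 and Gbp7 were higher in knockout cells in both replicates, with log2 differences of 1.49 and 0.66 for Gbp5 and 1.34 and 0.63 for Gbp7. Gbp9, Igtp and Ifi47 were lower in both, with -0.24 and -0.80 for Gbp9, -0.020 and -1.15 for Igtp and -0.40 and -1.33 for Ifi47. The other 5 members had opposite signs in the 2 replicates, above wild type in replicate 1 and below it in replicate 2, with 0.35 and -1.11 for Gbp2, 0.13 and -1.49 for Irgm1, 0.12 and -1.01 for Irgm2, 0.41 and -1.24 for Iigp1 and 1.15 and -0.28 for Gbp3. Among all genes 38.1% were higher and 35.4% lower in both replicates, so 2 and 3 of 10 are not above the background. No member was called with or without the block, where with it 5.53% of all genes were called higher and 3.75% lower, and without it 0.0082% and 0%. At an unadjusted p under 0.05, 0 passed without the block in limma, edgeR or DESeq2, and 3 passed with it in limma and in edgeR, 2 higher and 1 lower, where 15.4% of all genes were higher and 12% lower in limma. The nearest were Gbp5 at 1.07 ± 0.35 (adjusted p = 0.107 with the block), Gbp7 at 0.99 ± 0.34 (0.124) and Ifi47 at -0.86 ± 0.30 (0.127). The groups overlapped for all 10, where 18.8% of all genes were higher and 16.1% lower without overlap. The median of the 10 was -0.43, against 0.02 for all genes. All 7 osteoclast markers were higher on average in knockout cells (median log2 difference 3.51), with sums of 17240.3 and 40561 CPM in KO TNF and 6329.6 and 4564 CPM in WT TNF libraries, and 6 of the 7 macrophage markers were lower (median -1.41). Their part in the GTPase differences was not tested. Lyz2, 1 of the 7 macrophage markers, is the locus from which Cre is expressed in the knockout. Whether the Cre allele alters its level was not tested.

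At day 0, before TNF, all 10 genes were higher in knockout than in wild-type cells in both replicates, where 31.8% of all genes were higher and 25.9% lower. The within-replicate log2 differences were 0.63 and 1.96 for Gbp2, 0.84 and 2.27 for Gbp3, 1.62 and 2.32 for Gbp5, 0.89 and 1.63 for Gbp7 and 0.61 and 1.79 for Gbp9. In the IRG genes they were 0.17 and 0.78 for Irgm1, 0.55 and 1.39 for Irgm2, 0.36 and 1.30 for Igtp, 0.39 and 1.26 for Ifi47 and 1.55 and 2.67 for Iigp1. Each gene had the larger difference in replicate 2, the replicate in which its level was also higher. None of the 10 was called, with an adjusted p of 1 for each without the block (0 at an unadjusted p under 0.05 in limma, edgeR and DESeq2). With the block, 9 of the 10 had an unadjusted p under 0.05 (not Irgm1), where 3.49% of all genes were higher in that way, and edgeR with the block gave 8. The smallest adjusted p with the block was 0.274, for Gbp5 at 1.97 ± 0.35, while 0% of all genes were called higher and 0.0082% lower in that fit. Iigp1 at 2.11 ± 0.66 had the largest difference and rested on 7 reads in WT day 0 replicate 1. The 2 groups overlapped for every member, since each replicate 1 knockout library was below the replicate 2 wild-type library, while 9.86% of all genes were higher and 8.66% lower without overlap. The median of the 10 was 1.23, against 0.01 for all genes. Summed dendritic markers were 6.75 and 31.9 CPM in KO day 0 and 3.57 and 3.60 CPM in WT day 0 libraries, and the neutrophil markers stood at the day 0 sums given above. The part of these cells in the difference was not tested.

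**Figure D3:**
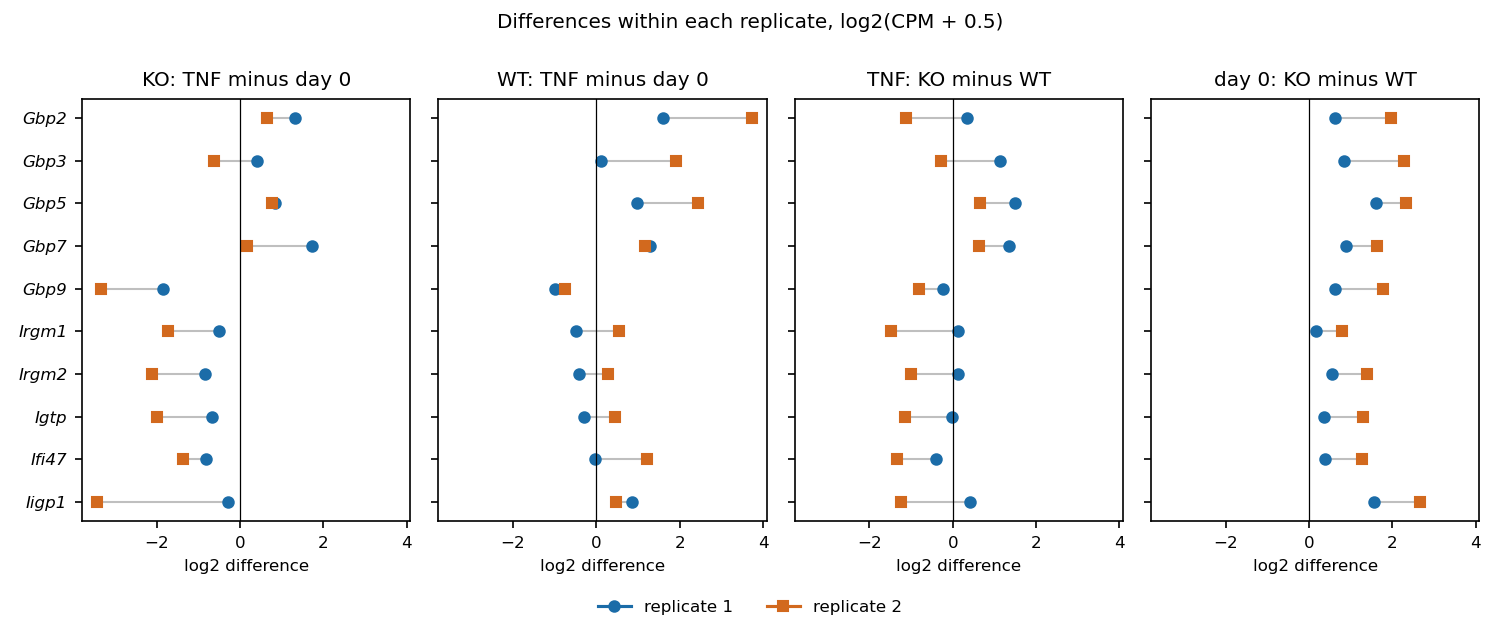
Log2 differences on the log2(CPM + 0.5) scale within replicate 1 and within replicate 2, for TNF minus day 0 in knockout and in wild-type cells and for KO minus WT after TNF and at day 0, with 1 row per gene and 1 point per replicate. At day 0 all points lie to the right of 0, and in knockout cells the points of Gbp9 and the 5 IRG genes lie to the left of 0.

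The difference of the TNF responses, knockout minus wild type, asked whether TNF moved these genes differently without Rbpj. It was negative in both replicates for 8 of the 10 genes, where 36% of all genes were, with 0.30 and -2.55 for Gbp3 and 0.46 and -0.997 for Gbp7 as the exceptions. For Gbp9 it was -0.85 and -2.59, for Ifi47 -0.79 and -2.59, for Iigp1 -1.14 and -3.91 and for Gbp2 -0.29 and -3.07. Irgm1 had -0.034 and -2.27, and the first of these turned to 0.002 when the libraries were rescaled by median-ratio size factors, leaving 7 of 10. No member was called, with an adjusted p of 0.9997 for each without the block and no unadjusted p under 0.05 in limma, edgeR or DESeq2. With the block 6 had an unadjusted p under 0.05, all lower, where 8.57% of all genes were lower in that way, and edgeR with the block gave 7. The smallest adjusted p was 0.137 for Ifi47, at -1.69 ± 0.43, followed by 0.167 for Gbp9, at -1.72 ± 0.51, and 0% of all genes were called in either direction in both fits. The median of the 10 was -1.41, against 0.01 for all genes. This contrast is built from the same 8 libraries as the comparisons above and adds no independent samples.

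Other members of the families were listed as 18 genes, of which 17 were in the table and 10 passed the filter of 1 CPM in 2 libraries. In knockout cells with TNF, 4 of these 10 fell with the block and 0 rose (13.7% and 12.2% of all genes), Gm5431 (-2.64 ± 0.37, adjusted p = 0.00486), 9930111J21Rik1 (-2.53 ± 0.30, 0.00296), Gm4951 (-2.26 ± 0.57, 0.0322) and Gm12250 (-1.75 ± 0.38, 0.0201), the last of which is the gene of the effector Irgb10. 9930111J21Rik1 was also called without the block (adjusted p = 0.0440), with 1.42 and 1.79 CPM in KO TNF and 7.33 and 18.2 CPM in KO day 0 libraries. It was the 1 gene of all the companion lists called in that fit, and the call without the block was lost on leaving out any 1 of the 8 libraries (adjusted p 0.0610 to 0.212). With the block, Gm5431 and 9930111J21Rik1 were called in all 8 fits that leave out 1 library, Gm12250 was lost without KO TNF replicate 2 or either KO day 0 library, and Gm4951 without KO TNF replicate 2, either WT TNF library or KO day 0 replicate 2 (adjusted p up to 0.123 and 0.225). In wild-type cells Gbp6 rose with the block, 1 of the 10 where 5.54% of all genes rose (3.47 ± 0.73, adjusted p = 0.0343 with the block and 0.560 without it), with 1.26 and 46.7 CPM in WT TNF and 0 and 0.853 CPM in WT day 0 libraries, and no other listed family member was called. The Gbp6 call was lost without WT TNF replicate 2, WT day 0 replicate 2 or either KO day 0 library (adjusted p up to 0.196). Gbp6 and Gbp2 thus had their largest levels in the same library, WT TNF replicate 2. The median log2 difference of the 10 tested was -1.58 in knockout cells with TNF, 0.08 in wild-type cells with TNF, -0.70 for KO against WT after TNF and 1.19 at day 0. In replicate 2 against replicate 1, 8 of the 10 rose and 1 fell (Irgq), where 15.8% and 30.4% of all genes did.

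The pathway above these genes was listed as 17 genes of interferon-gamma and JAK-STAT signalling, of which 16 were tested. Ifng, the ligand, was not tested, with 0 reads in both KO day 0 and both WT day 0 libraries and at most 11 reads in any library (WT TNF replicate 2, 0.466 CPM). In knockout cells with TNF, 5 of 16 fell with the block and 0 rose, where 13.7% and 12.2% of all genes did. Irf8, a myeloid interferon regulatory factor, fell most (-2.04 ± 0.15, adjusted p = 0.000875 with the block and 0.0574 without it), with 58.6 and 33.3 CPM in KO TNF and 224 and 151 CPM in KO day 0 libraries. Stat2 (-1.77 ± 0.33, 0.0124 with the block) and Irf9 (-1.16 ± 0.19, 0.00770), which act together downstream of the type I interferon receptor, also fell, as did Ifnar2, a chain of the type I interferon receptor (-1.16 ± 0.19, 0.00789), and Irf2 (-0.74 ± 0.17, 0.0229). Irf1 (-0.45 ± 0.24, 0.205) and Ifngr1 (-1.11 ± 0.40, 0.0857) did not pass. Irf8 was called in all 8 fits that leave out 1 library. Ifnar2 was lost without KO day 0 replicate 2, Irf9 and Stat2 without KO TNF or KO day 0 replicate 2, and Irf2 without KO TNF replicate 2 or either KO day 0 library (adjusted p up to 0.0741, 0.0743, 0.101 and 0.193).

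In wild-type cells with TNF, 2 of the 16 rose with the block and 0 fell (5.54% and 4.71% of all genes), Socs3, an inhibitor of JAK signalling (3.70 ± 0.60, adjusted p = 0.0164 with the block and 0.157 without it), and Jak2, the kinase bound to the interferon-gamma receptor (1.53 ± 0.30, adjusted p = 0.0271 with the block and 0.546 without it). Jak2 had 89.1 and 332 CPM in WT TNF and 48.1 and 72.6 CPM in WT day 0 libraries, which do not overlap. In that comparison 14.8% of all genes were higher without overlap. After TNF, Irf8 (-1.52 ± 0.15, adjusted p = 0.0165 with the block) and Irf2 (-0.85 ± 0.17, 0.0346) were lower in knockout than in wild-type cells, 2 of 16 where 3.75% of all genes were called lower, and no other member of the list was called there. Without WT TNF or WT day 0 replicate 2 the Jak2 call was lost (adjusted p up to 0.182), and the Socs3 call without any 1 of the 4 wild-type libraries (up to 0.125). After TNF, Irf8 was lost without KO TNF or WT TNF replicate 2 (up to 0.140), and Irf2 without any library but KO TNF replicate 1 (up to 0.215). At day 0, 0 of 16 were called. The list medians were -0.36 in knockout and 0.19 in wild-type cells with TNF, -0.60 for KO against WT after TNF and 0.26 at day 0. Between the replicates, 6 of 16 rose in replicate 2 and 2 fell, where 15.8% and 30.4% of all genes did, and the 6 include Stat2 (1.83 ± 0.24), Irf9 (1.05 ± 0.13) and Irf1 (0.98 ± 0.17), while Irf8 fell (-0.74 ± 0.11). Stat2 therefore differed between replicates in the same direction as the 10 GTPase genes, by less than any of the 10.

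**Figure D4:**
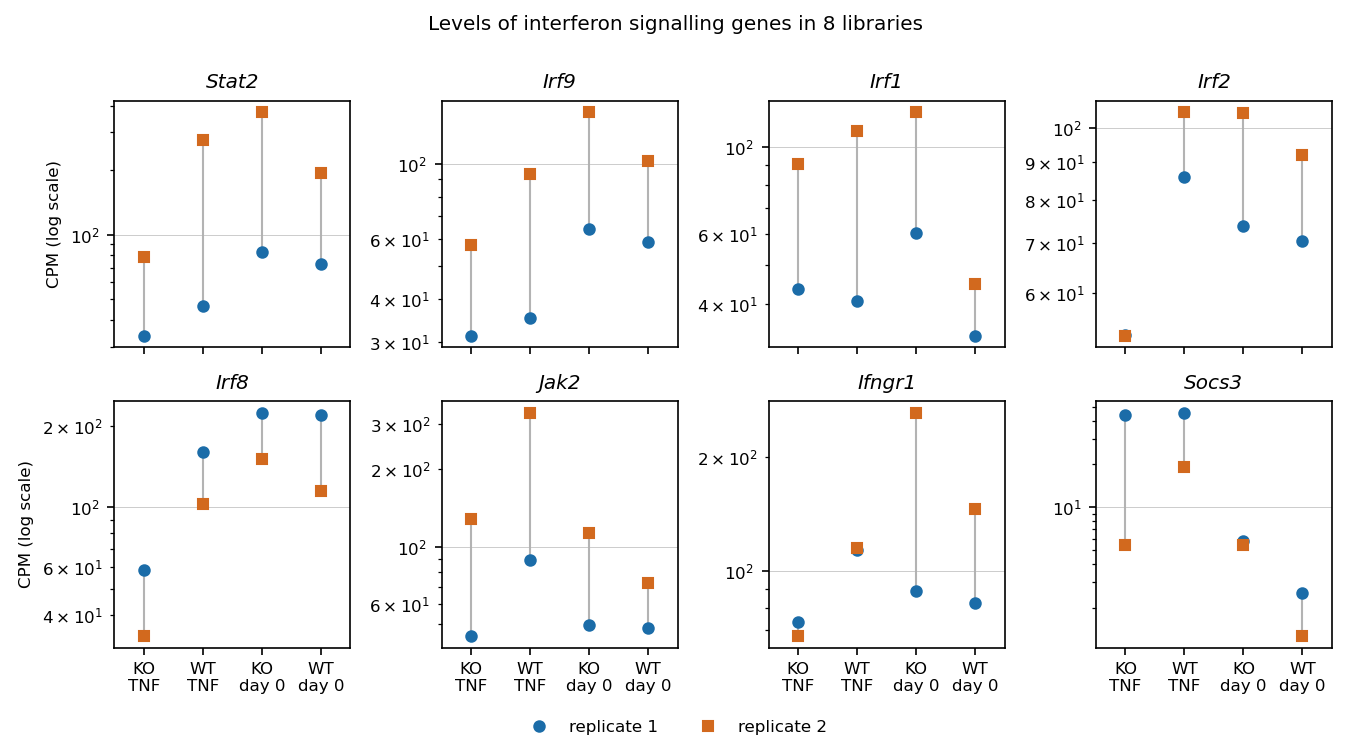
Level in CPM on a log axis of 8 genes of interferon and JAK-STAT signalling by group (KO TNF, WT TNF, KO day 0, WT day 0) and replicate, with 1 point per library. Stat2, Irf9 and Irf1 are higher in replicate 2 in every group, Irf8 is lower in replicate 2 in every group, and Irf8 is lowest in KO TNF cells.

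Other targets of interferon-gamma were listed as 15 genes, of which 13 were tested. In knockout cells with TNF, 3 of the 13 fell with the block and 2 rose, where 13.7% and 12.2% of all genes did, so these counts are near those of all genes. Those that fell serve antigen processing, the immunoproteasome genes Psmb9 (-1.09 ± 0.20, adjusted p = 0.0123) and Psmb8 (-0.81 ± 0.20, 0.0304) and the peptide transporter gene Tap1 (-1.06 ± 0.28, 0.0354). Those that rose were Cd274, which encodes PD-L1 (1.53 ± 0.41, 0.0366), and the serpin gene Serpina3g (1.80 ± 0.44, 0.0281). Cd274 also rose in wild-type cells (3.11 ± 0.41, adjusted p = 0.00799 with the block and 0.372 without it), where no other gene of the list was called (5.54% of all genes rose there). All 6 of these calls were lost on leaving out KO TNF or KO day 0 replicate 2, or, for Cd274 in wild-type cells, WT TNF or WT day 0 replicate 2 (adjusted p up to 0.245 for Tap1 and 0.0534 for Cd274 in wild-type cells). In knockout cells those of Cd274 and Serpina3g were also lost without KO TNF or KO day 0 replicate 1, that of Psmb8 without KO day 0 replicate 1, and that of Tap1 without that library or either WT TNF library. The medians were -0.01 in knockout and 0.53 in wild-type cells with TNF.

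Of 25 genes stimulated by type I interferon, all tested, 8 fell with the block in knockout cells with TNF and 0 rose, where 13.7% and 12.2% of all genes did. In wild-type cells 0 were called, where 5.54% of all genes rose and 4.71% fell. Those with the largest differences were Oas3 (-2.01 ± 0.46, adjusted p = 0.0241), Ifit2 (-1.90 ± 0.55, 0.0475), Slfn8 (-1.75 ± 0.32, 0.0109) and Mx2 (-1.65 ± 0.47, 0.0447). All 8 calls were lost without KO day 0 replicate 2, and all but that of Slfn8 without KO TNF replicate 2 (adjusted p up to 0.0927 for Slfn8 and 0.294 for Mx2). KO day 0 replicate 1 was needed for 5 of the 8 (Bst2, Oas1a, Oas3, Trim30a and Xaf1), the WT day 0 libraries for Oas1a, Ifit2 and Mx2, and the WT TNF libraries for Ifit2 and Mx2. The list median was -1.33 in knockout and 0.02 in wild-type cells with TNF, and 0.65 for KO against WT at day 0, where 24 of 25 were higher in both replicates (31.8% of all genes) and 0 were called. Replicate 2 was higher for 25 of 25 with the block, where 15.8% of all genes were, led by Ifi44 (8.12 ± 0.39), Ifit3 (4.86 ± 0.49), Ifit1 (4.32 ± 0.40) and Irf7 (4.15 ± 0.39). Ifi44 had 1.42 and 182 CPM in KO TNF libraries, 0.561 and 410.3 CPM in WT TNF, 1.07 and 845 CPM in KO day 0 and 0.692 and 357 CPM in WT day 0 libraries. The replicate difference therefore took in the type I interferon list as well as the GTPases.

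A further pair of lists holds partners of these GTPases in the cell. The conjugation machinery of ATG8 proteins helps to place IRGs and GBPs on vacuoles. Its list of 14 genes also held genes of ATG8 proteins, of an autophagy adaptor and of ubiquitin ligases. Of the 14, 2 fell and 1 rose in knockout cells and 1 rose in wild-type cells with TNF, near the shares of all genes (13.7% fell and 12.2% rose in knockout cells, 5.54% rose in wild-type cells). With the block, the ubiquitin ligase gene Trim21 (-1.59 ± 0.23, adjusted p = 0.00502) and Atg12 (-0.59 ± 0.15, 0.0346) fell and Traf6, another ubiquitin ligase gene, rose (1.08 ± 0.28, 0.0357) in knockout cells with TNF, and Sqstm1, an autophagy adaptor gene, rose in wild-type cells (1.54 ± 0.27, 0.0202). The list medians lay between -0.09 and 0.24 in the 5 comparisons. Inflammasome genes, on which GBPs act, were listed as 10. In knockout cells with TNF 5 of the 10 fell and 2 rose, where 13.7% and 12.2% of all genes did, and in wild-type cells 2 rose and 0 fell, where 5.54% and 4.71% did. Casp4, the caspase that senses cytosolic lipopolysaccharide, rose in knockout (1.27 ± 0.22, 0.00940) and in wild-type cells (1.68 ± 0.22, 0.00784), as did Gsdmd, the pore-forming gasdermin (1.04 ± 0.17, 0.00855 in knockout and 1.51 ± 0.17, 0.00547 in wild-type cells). Il18 fell in knockout cells (-1.995 ± 0.34, 0.00912), as did Pycard, the inflammasome adaptor (-0.70 ± 0.16, 0.0217). After TNF, Nlrp3 (-1.39 ± 0.29, 0.0380), Ninj1 (-0.79 ± 0.15, 0.0328) and Pycard (-0.76 ± 0.16, 0.0380) were lower in knockout than in wild-type cells, 3 of 10 where 3.75% of all genes were. None of the genes of these 2 lists was called without the block. With it, none of their calls was kept in all 8 fits that leave out 1 library. Trim21, Casp4 and Gsdmd in knockout cells and Casp4 in wild-type cells were lost without 1 library, a day 0 library of the same genotype (adjusted p up to 0.0565, 0.0622, 0.0633 and 0.0617), Il18 in knockout cells and Sqstm1 and Gsdmd in wild-type cells without either replicate 2 library of the comparison (up to 0.0829, 0.155 and 0.0537), and the others without any 1 of 4 to 8 libraries, KO TNF replicate 2 and both KO day 0 libraries among them for each (up to 0.283, for Aim2 in knockout cells).

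The genes whose pattern over the 8 libraries was nearest to the mean pattern of the 10 GTPases were found among 10987 others by the root mean square distance of centred log2(CPM + 0.5) values. The other listed GBP and IRG family genes were left out of this search. The nearest were Oas1g, at a distance of 0.236, H2-T23 (0.248), Ifih1 (0.325), Slfn5 (0.357) and Isg15 (0.364), where the median gene stood at 1.64. Oas1g is an oligoadenylate synthetase gene, H2-T23 encodes a nonclassical class I molecule, Ifih1 the RNA sensor MDA5, and Isg15 a ubiquitin-like protein. Oas1g had 3.96 and 17.6 CPM in KO TNF libraries, 3.31 and 31.04 CPM in WT TNF, 4.90 and 43.7 CPM in KO day 0 and 3.46 and 19.3 CPM in WT day 0 libraries. H2-T23 had 4.67 and 24.7 CPM in KO TNF libraries, 4.10 and 49.8 CPM in WT TNF, 4.15 and 60.8 CPM in KO day 0 and 3.64 and 25.6 CPM in WT day 0 libraries. Both were higher in replicate 2 in every group, as the GTPases were. The 10 members themselves lay at 0.354 (Ifi47) to 0.964 (Gbp2) from their own mean pattern, so Oas1g, H2-T23 and Ifih1 were nearer to it than any member was. Gbp2, the farthest, was the member with the largest TNF difference in wild-type cells.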

How the data were processed

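Poly-A RNA of BMMs was sequenced in 8 libraries. The deposited table gives CPM per gene, scaled by the authors to the reads in genes of each library. The submitters' processing notes list build mm10 and the tools HTSeq, HISAT2, fastp and edgeR. Tool versions, settings and annotation are not given in the sources used here. All CPM were whole multiples of 1 read (100% within 0.01), so reads were recovered. The members and lists were chosen with earlier results of these data known.

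Values were tested as log2(CPM + 0.5) in limma 3.58.1 under R 4.3.3 (eBayes with trend, 2-sided), with group as the only term and 4 residual degrees of freedom. Genes needed 1 CPM or more in 2 libraries or more, which 12194 met. Changes of low genes are understated on this scale. Adjustment was Benjamini-Hochberg over all genes, with a threshold of 0.05. A second fit took the replicate number as a block and left 3 residual degrees of freedom. The numbers were treated as pairing libraries because the series design names 2 independent experiments and the replicate differences of all 6 pairings of the groups correlated across genes (r 0.577 to 0.805). No label says outright that a number marks an experiment. Alternatives were edgeR 4.0.16 and DESeq2 1.42.0 on recovered reads, other pseudocounts, filters and scaling, and each library left out in turn. One gene of the signalling list is not reported here. Companion genes were named by list, with up to 4 called members of the type I interferon, ATG8 and inflammasome lists, and 5 genes by likeness of pattern.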

Additional observations from a re-analysis of the deposited data

Results flagged for a closer look

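The genes of this section were picked by the signs of their differences, and the share of all genes with such signs is not given here. In Gbp9, Igtp and Ifi47 the knockout was below wild type after TNF and above it at day 0, in both replicates, though for Igtp after TNF by only -0.020 in replicate 1. The KO minus WT log2 difference was -0.24 and -0.80 after TNF and 0.61 and 1.79 at day 0 for Gbp9, -0.020 and -1.15 after TNF and 0.36 and 1.30 at day 0 for Igtp, and -0.40 and -1.33 after TNF and 0.39 and 1.26 at day 0 for Ifi47 (replicates 1 and 2). The difference of these differences, with its standard error from limma with the replicate block, was -1.72 ± 0.51 for Gbp9, -1.41 ± 0.48 for Igtp and -1.69 ± 0.43 for Ifi47. Tested as an interaction in limma, it did not pass for any of the 3, with adjusted p = 0.167, 0.200 and 0.137 with the block and 0.9997 for each without it.

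In Iigp1 the TNF response was negative in both knockout replicates and positive in both wild-type replicates, with log2 differences of -0.28 and -3.43 in knockout and 0.86 and 0.47 in wild-type cells. The 2 responses differed by -2.53 ± 0.94, which did not pass in limma (adjusted p = 0.233 with the block and 0.9997 without it). Replicate 1 of Iigp1 rests on 13 reads in KO TNF, 31 in WT TNF, 48 in KO day 0 and 7 in WT day 0 cells.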

How the results depend on the processing

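With the replicate block, limma called 2 GTPases in wild-type cells with TNF, against 0 without it, and 2 also in edgeR with the block and with the block after rescaling by median-ratio size factors (the combination with rescaling and the left-out libraries for the companion lists were added after seeing the data). In knockout cells with TNF it called 4, against 0 without it, and 3 in edgeR with the block and with the block after rescaling, each time without Ifi47 (adjusted p = 0.0789 and 0.0788). In limma with all 8 libraries the block changed no other count of calls among the GTPases, and it changes no log2 difference. Over all genes, the calls with the block against those without it were 1250 and 144 for TNF in wild-type cells, 3162 and 622 for TNF in knockout cells, 1131 and 1 for KO against WT after TNF, and 1 and 0 at day 0. In edgeR on recovered reads they were 1163 and 60, 3074 and 497, 811 and 0, and 1 and 0 in the same comparisons, and 0 in both for the difference of the responses. DESeq2 without the block called 874, 1701, 593, 24 and 79 genes in the 5. With 1 library left out, in fits with or without the block, the number of GTPases called was 0 to 5 for TNF in knockout cells, 0 to 3 for TNF in wild-type cells, 0 in the other comparisons of groups and 10 for replicate 2 against replicate 1. Other pseudocounts, filters, DESeq2, edgeR without the block and a fit of the contrast's own libraries called 0 GTPases in each comparison of groups.

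Median-ratio rescaling moved the median of all genes by 0.12 for TNF in wild-type cells and by less than 0.1 elsewhere. Irgm2 in wild-type cells with TNF turned from -0.07 to 0.0515 under it, with or without the block, to 0.40 in edgeR, 0.0579 in edgeR with the block and 0.41 in DESeq2. Gbp3 in KO against WT after TNF turned from 0.43 to -0.19 in edgeR and -0.21 in DESeq2. The cause was not tested. The other 593 single-gene values under such settings kept their direction. With 1 library left out, 96 of 880 single-gene values reversed. Without the block, a group is then 1 library of 1 replicate. Of the 96 reversals, 14 came in fits with the block. These were, in wild-type cells with TNF, Irgm2 without WT TNF or WT day 0 replicate 1 (0.213 and 0.116), and Irgm1 (-0.474 and -0.139) and Igtp (-0.203 and -0.140) without WT TNF or WT day 0 replicate 2. In knockout cells with TNF it was Gbp3 without KO TNF or KO day 0 replicate 2 (0.233 and 0.237). For KO against WT after TNF they were Irgm2 (0.0277) and Iigp1 (0.724) without KO TNF replicate 2, Gbp3 without WT TNF replicate 1 (-0.169) and Gbp2 without WT TNF replicate 2 (0.350). For the difference of the responses it was Gbp7 without KO TNF or KO day 0 replicate 2 (0.251 and 0.260). Over fits with and without the block, the ranges of the results that reversed were as follows. For KO against WT after TNF, the lowest and highest log2 differences were Gbp2 -2.54 to 1.77, Gbp3 -1.34 to 2.21, Gbp5 -0.78 to 2.92, Gbp7 -0.34 to 2.32, Gbp9 -1.73 to 0.68, Irgm1 -2.33 to 0.97, Irgm2 -1.88 to 0.99, Igtp -1.86 to 0.69, Ifi47 -2.63 to 0.91 and Iigp1 -2.43 to 1.60. At day 0, KO against WT, the lowest and highest log2 differences were Gbp2 -0.45 to 3.05, Gbp3 -0.0290 to 3.15, Gbp7 -0.51 to 3.02, Gbp9 -0.46 to 2.86, Irgm1 -0.97 to 1.92, Irgm2 -0.54 to 2.47, Igtp -0.54 to 2.20, Ifi47 -0.76 to 2.41 and Iigp1 -0.65 to 4.88. For TNF in knockout cells, the lowest and highest log2 differences were Gbp2 -0.77 to 2.73, Gbp3 -1.70 to 1.48, Gbp5 -0.66 to 2.29, Gbp7 -0.81 to 2.71, Irgm1 -2.56 to 0.33, Irgm2 -2.99 to 0.02005, Igtp -2.70 to 0.0330, Ifi47 -2.68 to 0.49 and Iigp1 -4.62 to 0.91. For TNF in wild-type cells, the lowest and highest log2 differences were Gbp3 -0.77 to 2.79, Gbp5 -0.14 to 3.56, Gbp7 -0.17 to 2.61, Gbp9 -2.08 to 0.33, Irgm1 -1.61 to 1.69, Irgm2 -1.51 to 1.37, Igtp -1.19 to 1.35, Ifi47 -1.18 to 2.36 and Iigp1 -1.54 to 2.87. For the difference of the responses, the lowest and highest log2 differences were Gbp2 -3.83 to 0.47, Gbp3 -2.90 to 0.66, Gbp5 -2.75 to 0.95, Gbp7 -2.03 to 1.49, Irgm1 -2.80 to 0.50, Irgm2 -2.92 to 0.0924, Ifi47 -3.46 to 0.0801 and Iigp1 -5.29 to 0.24. 

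Depth limits Iigp1, Gbp9 and Gbp5 most, with as few as 7, 21 and 24 reads in a library, and 2 libraries a group limit every test.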
